A study of Mus musculus with 4 samples.

Results

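Heparan sulfate chains are long sulfated sugar polymers carried on cell surface and matrix proteoglycans. They bind growth factors such as FGF, Wnt, BMP and Hedgehog proteins, and the pattern of sulfate groups along a chain sets which of these it binds. The chain is built in the Golgi by the EXT polymerases and sulfated in steps by NDST, HS2ST and HS6ST enzymes. Outside the cell it is trimmed again by the SULF endosulfatases, which remove 6-O-sulfate groups. In the eye field, where FGF and Wnt signals pattern the early retina, these enzymes act on the reach and strength of such signals.

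The m6A sites of 10 such genes are described here: the polymerases Ext1 and Ext2, the sulfotransferases Ndst1, Hs2st1, Hs6st1 and Hs6st2, the sulfatases Sulf1 and Sulf2, and the glypicans Gpc3 and Gpc4. All 10 genes were found in the site tables. They had 1153 listed sites of the 833043 sites that the tables placed inside genes and of 1076788 in all. The sites were selected by gene name, but the genes were chosen with the measured site levels and site lists of these libraries already known. All differences between dTAG13 and untreated libraries below are therefore descriptions, and counts of calls are given without reading support from them.

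Methylation was read with GLORI, which converts unmethylated adenosine to inosine, read as G, and leaves m6A read as A. The level of a site is its A reads as a percentage of all reads there that show A or G. The material was polyA RNA of mouse organoids at day 6, grown from a retinal reporter line, Rx:GFP, that carries an FKBP12F36V-HA degron at the C-terminus of endogenous Mettl3, and cultured in a medium containing KSR and AGN. METTL3 catalyses most m6A formation in mRNA, and dTAG13 sends proteins that carry the degron to the proteasome. The 2 libraries labelled dTAG13-0hr (untreated) received none, and the 2 labelled dTAG13-8hr were exposed to 125 nM for 8 h. The degron and the culture conditions are shared by both groups, and no line without the degron was analysed here. The genotype label reads Mettl3 in 1 untreated library and Mettl4, Mettl5 and Mettl6 in the other libraries, whereas the series text names METTL3 throughout. Nothing in the labels says that the 2 libraries of a group came from separate cultures, so the spread between them may be technical.

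Only called sites are listed. The lowest depth (A plus G reads) among them was 15, the lowest number of A reads 5 and the lowest level 10%, so an unlisted site is not a site at 0%. The median listed site of the 10 genes had 101, 103.5, 99 and 127.5 reads in untreated libraries 1 and 2 and dTAG13 libraries 1 and 2. All 7 eye field genes examined (Rax, Six3, Six6, Lhx2, Pax6, Otx2 and Sox2) were listed in all 4 libraries, with a summed gene coverage of 2142 to 3376. The 4 pluripotency markers (Pou5f1, Nanog, Zfp42 and Esrrb) were also listed in every library, with a summed coverage of 392 and 452 in the untreated and 375 and 422 in the dTAG13 libraries. Of the 4 mesoderm markers, Tbx6, Mesp1 and Tbxt were listed in none, whereas Hand1 was listed in all 4 libraries, with a coverage of 66.8 and 105 in the untreated and a higher 135 and 141 in the dTAG13 libraries. Of the 4 endoderm markers only Sox17 was listed in all 4 libraries. Of the 4 neuron markers, Tubb3 and Stmn2 were listed in all 4 libraries, whereas Dcx and Elavl3 were not. Coverage of Tubb3 was 235 and 222 in the untreated and 143 and 244 in the dTAG13 libraries. That of Stmn2 was 42.6 and 44.97 in the untreated and 41.5 and 39.6 in the dTAG13 libraries. The part of other cell types in the results was not tested.

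The member site with the clearest pattern lay in Sulf2, the endosulfatase that edits chains on the cell surface. It was on chromosome 2 at position 165916546, minus strand. In untreated library 1 its level was 92.8% (154 of 166 reads, Wilson 95% interval 87.8 to 95.8%), and in untreated library 2 it was 92.0% (345 of 375 reads, 88.8 to 94.3%). In dTAG13 library 1 it was 24.7% (43 of 174 reads, 18.9 to 31.6%), and in dTAG13 library 2 it was 19.4% (26 of 134 reads, 13.6 to 26.9%). Both dTAG13 libraries lay far below both untreated libraries, whose values were less than 1 point apart. The group means were 92.4% ± 0.55 and 22.1% ± 3.75 (SD, n = 2 each), a difference of -70.3 percentage points. The Wilson intervals cover counting error within a library only, and not the spread between libraries. It is not known whether the reads are independent molecules, so the intervals may be too narrow even for counting error.

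This was the only one of the 1153 member sites listed in all 4 libraries, a pattern found at 0.0867% of the member sites and 0.146% of all sites inside genes. A quasi-binomial logistic model fitted to every site of the series with at least 20 reads in all 4 libraries called 2.28% of 2321 sites changed at an adjusted p under 0.05. The Sulf2 site was the 1 member site in this fit and was called lower with dTAG13. After leaving out any single library no site of the series passed, the Sulf2 site included, although its difference stayed between -73.0 and -67.7 points.

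Sites most like it were sought among the 1219 sites inside genes listed in all 4 libraries, by the root mean square difference in level over those libraries. The nearest were single sites in Stam, Mfsd5, Kat6b, Ipo5 and Gja1, at 3.85 to 5.61 points from the Sulf2 site. The closest, in Stam (chromosome 2, position 14151431, plus strand), went from 97.7% and 97.8% without dTAG13 to 25.9% and 19.2% with it. The measure uses 4 libraries, so likeness here means only that the levels were similar in each.

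**Figure D1:**
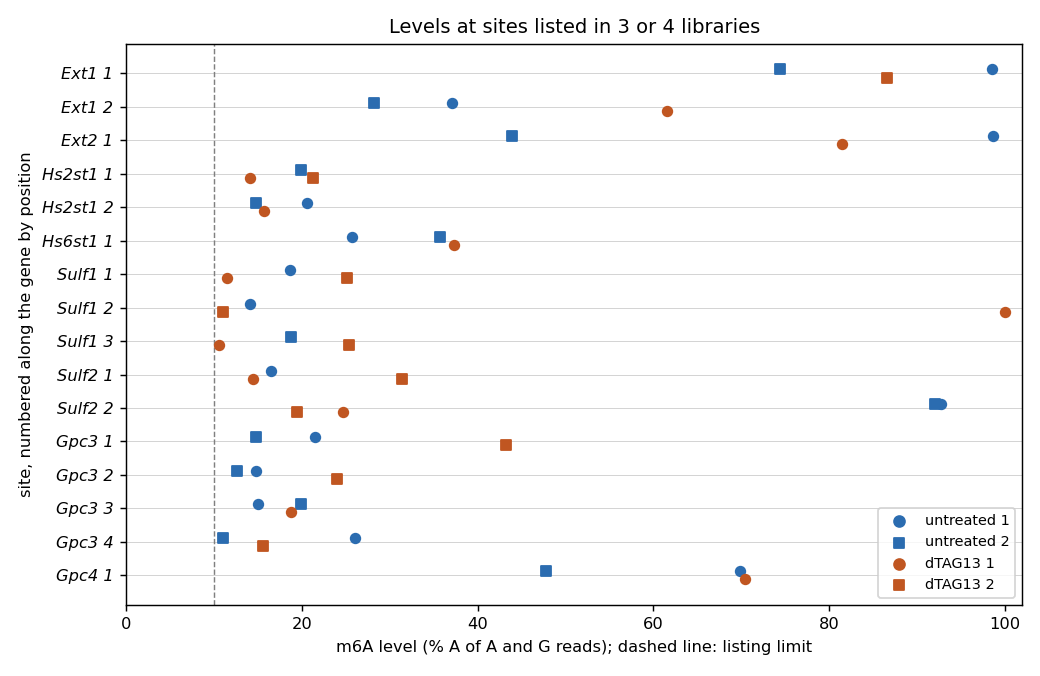
m6A level (% A of A and G reads, horizontal axis) at the 16 member sites listed in 3 or 4 libraries, 1 row per site, with untreated libraries in blue and dTAG13 libraries in orange (circle, replicate 1; square, replicate 2); a missing marker means that the library did not list the site. The second Sulf2 site, at 92.8% and 92.0% without and 24.7% and 19.4% with dTAG13, is the only one of these rows with 4 markers.

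Every other Sulf2 site lacked a replicate in at least 1 group. Sulf2 had 84 listed positions between 165915905 and 165974570, of which 8 were listed in more than 1 library. Of these 8, the site at 165923542 was at 79.1% in untreated library 1 (189 of 239 reads) and 13.7% in dTAG13 library 2 (47 of 343 reads). At 165916290 the level was 79.3% in untreated library 1 (261 of 329 reads) and 47.0% in dTAG13 library 2 (220 of 468 reads). Both positions were listed in 1 library of each group, so their differences have no replicate.

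Other Sulf2 sites were not lower with dTAG13 in this way. Of the 6 Sulf2 sites listed in both groups, 3 were lower and 3 higher with dTAG13 on average. At 165921066 the level was 33.3% in untreated library 1 (8 of 24 reads) and 44.2% in dTAG13 library 2 (23 of 52 reads). At 165935423 it was 18.7% in untreated library 1 (23 of 123 reads) and 37.8% in dTAG13 library 1 (45 of 119 reads). Neither difference has a replicate. The site at 165916283 lay only 7 bases from that at 165916290. It had 16.5% in untreated library 1 and 14.4% and 31.4% in the dTAG13 libraries, so the groups overlapped. The sites at 165915973 and 165935381 were listed in both dTAG13 libraries and in neither untreated library. The first had 18.7% (83 of 443 reads) and 25.6% (137 of 536 reads), close to each other. The second had 45.9% (17 of 37 reads) and 100% (53 of 53 reads), so the dTAG13 replicates were far apart there. The Sulf2 site with the most reads, at 165916342, was listed in dTAG13 library 2 alone, at 11.0% of 1002 reads.

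Sulf2 had listed sites numbering 25 and 18 without dTAG13 and 23 and 29 with it. These ranges overlapped, and the means were 21.5 ± 4.95 and 26 ± 4.24 (SD, n = 2 each). Gene coverage, the authors' value of read depth over the gene, was 192 and 215 in the untreated and 144 and 172 in the dTAG13 libraries. Relative to the median gene of each library, the log2 coverage was 0.96 and 1.06 in the untreated and 0.80 and 0.63 in the dTAG13 libraries. The limma estimate of the log2 difference was -0.29 ± 0.20 (SE, n = 2 per group). Sulf2 had the lowest conversion rates (share of A read as G over the gene) of the 10 genes in both untreated libraries, 93.1% and 92.4%, and 95.0% and 96.1% with dTAG13. Expressed per 100 units of coverage, Sulf2 had 13.0 and 8.38 listed sites without and 16.0 and 16.8 with dTAG13, so its groups did not overlap and the dTAG13 values were higher, as in 10.3% of all genes with a mean of 10 or more sites per library.

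Sulf1, the paralogous endosulfatase, differed from Sulf2 in its number of sites. It had 160 listed positions on chromosome 1 between 12762889 and 12931367, plus strand. They numbered 58 and 56 in the untreated and 30 and 40 in the dTAG13 libraries. Both dTAG13 counts lay below both untreated counts, with a ratio of group means of 0.614. Its coverage overlapped between groups, at 144 and 199 in the untreated and 114 and 174 in the dTAG13 libraries.

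Of the 21 Sulf1 sites listed in more than 1 library, 6 were in both untreated libraries, and the dTAG13 libraries listed none of these 6. The one with the highest mean, at 12930945, had 53.2% (132 of 248 reads) and 68.1% (130 of 191 reads). The site with the next highest mean, at 12930432, had 49.5% and 37.6%. Low sites were found in both groups: at 12929943 the level was 18.8% in untreated library 2 (62 of 330 reads) and 10.5% and 25.3% in the dTAG13 libraries (6 of 57 and 153 of 604 reads). At 12929618 dTAG13 library 1 read 100% (35 of 35), while untreated library 1 and dTAG13 library 2 read 14.1% and 11.0%. The value of 100% thus stood apart from the other dTAG13 library as much as from the untreated one. One Sulf1 site, at 12931113, was listed in both dTAG13 libraries (16.8% and 10.2%) and in neither untreated library. The Sulf1 position with the most reads, 12930289, was listed in untreated library 1 alone, at 15.2% of 1102 reads.

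**Figure D2:**
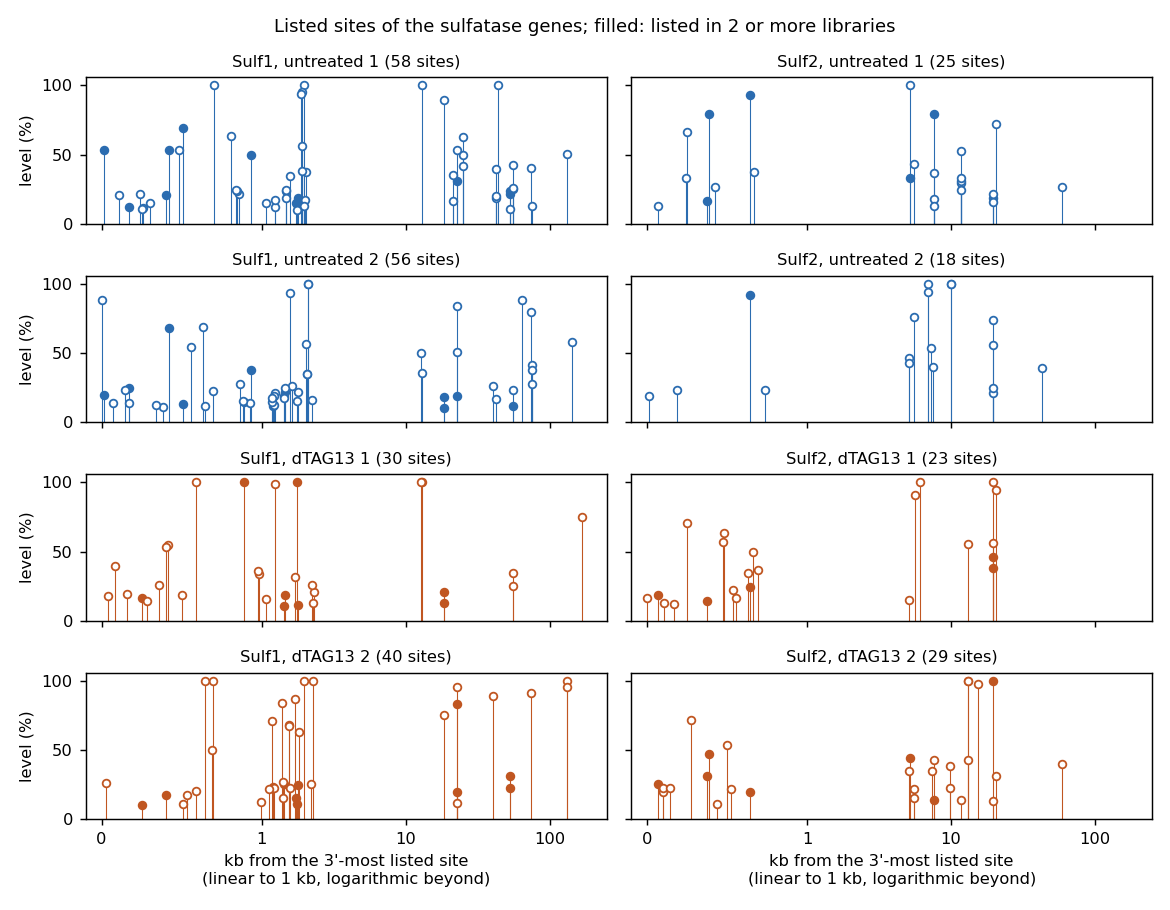
Level (%, vertical axis) of every listed Sulf1 and Sulf2 site in each library against its distance in kb from the 3′-most listed site of the gene (linear to 1 kb, logarithmic beyond); filled points are sites listed in 2 or more libraries, and open points are in 1. Sulf1 has 58 and 56 sites without and 30 and 40 with dTAG13, whereas Sulf2 has 25 and 18 without and 23 and 29 with it, and most points in both genes are open.

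Ext1 and Ext2 form the polymerase that lengthens the chain. Ext1 had 28 and 40 listed sites without and 16 and 22 with dTAG13, with no overlap between the groups. Ext2 had 21 and 25 without and 13 and 23 with it, and the groups overlapped. Coverage overlapped between groups for both genes, at 107, 114, 96.5 and 113 in Ext1 and 55.0, 93.2, 68.2 and 97.2 in Ext2 (untreated 1 and 2, dTAG13 1 and 2).

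Ext2 held the member site with the highest level seen in both untreated libraries. At chromosome 2, position 93526353, minus strand, all 209 reads of untreated library 1 and all 131 of untreated library 2 were A, and neither dTAG13 library listed it. The Wilson intervals begin at 98.2% and 97.2%. Another Ext2 site 36 bases away, at 93526317, had 98.6% (142 of 144 reads) and 43.9% (141 of 321 reads) in the untreated libraries and 81.5% (22 of 27 reads) in dTAG13 library 1. Its untreated replicates were thus farther apart than either was from the dTAG13 value. In Ext1, at chromosome 15, position 53208030, minus strand, the level was 98.5% (130 of 132 reads) and 74.4% (29 of 39 reads) without and 86.6% (251 of 290 reads) in dTAG13 library 2. The dTAG13 value lay between the untreated ones. The Ext1 site with the most reads, 53208581, was low, at 14.96% of 615 and 18.5% of 540 reads in the untreated libraries, and was not listed with dTAG13.

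Ndst1, the N-deacetylase/N-sulfotransferase that starts sulfation of the chain, had the most listed positions, 173 on chromosome 18. Its sites numbered 60 and 67 without and 29 and 33 with dTAG13, a ratio of 0.488, the lowest of the 10 genes. Coverage was also lower in both dTAG13 libraries, at 93.9 and 96.5 against 123 and 126. Of its 16 sites listed in more than 1 library, 3 were in both untreated and no dTAG13 library, and 3 were in both dTAG13 and no untreated library. At 60820653 the untreated libraries read 97.5% (39 of 40) and 97.2% (35 of 36). Among the 3 sites seen only with dTAG13, that at 60817873 read 17.7% of 327 and 17.8% of 320 reads. The site at 60819228 was high, with 82.4% (14 of 17 reads) and 77.5% (62 of 80 reads). The third, at 60820849, read 16.7% and 35.3%. The Ndst1 position with the most reads, 60821988, was listed once, at 11.7% of 1343 reads in untreated library 1.

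Hs2st1 adds 2-O-sulfate to uronic acid. Its listed sites numbered 63 and 53 without and 24 and 40 with dTAG13, without overlap, while its coverage (132, 155, 127 and 148) overlapped between the groups. It had 7 sites in both untreated libraries, 6 of them in no dTAG13 library. Most of these were low; the exception, at chromosome 3, position 144139561, read 98.0% (50 of 51) in 1 untreated library and 38.5% (72 of 187) in the other. A low site with many reads was alike in both groups: at 144139466 the level was 19.9% in untreated library 2 (241 reads) and 14.1% and 21.3% in the dTAG13 libraries (348 and 554 reads). At 144139430 it was 100% of 32 reads in untreated library 1 and 10.0% of 140 reads in dTAG13 library 1, 90 points lower with no replicate, and at 144138224 it was 18.1% of 171 reads in untreated library 1 and 96.0% of 50 reads in dTAG13 library 2. The site at 144136259 was listed in both dTAG13 libraries alone, at 15.9% and 32.6%.

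Hs6st1 and Hs6st2 add the 6-O-sulfate groups that Sulf1 and Sulf2 remove. Hs6st1 had 31 and 39 sites without and 25 and 32 with dTAG13, and the groups overlapped. Its coverage of 126 and 142 without and 137 and 177 with dTAG13 overlapped as deposited. Relative to the median gene it was higher in both dTAG13 libraries, with a log2 difference of 0.30 ± 0.20 (SE, n = 2 per group). Sites at 50% or more numbered 12 and 9 without and 2 and 8 with dTAG13. At chromosome 1, position 36143426, plus strand, the untreated libraries read 61.5% (56 of 91) and 100% (87 of 87), and no dTAG13 library listed it. The neighbouring positions 36143909, 36143920 and 36143921 were listed in both dTAG13 libraries and in no untreated library. At the first pair the level was higher in dTAG13 library 2, at 11.98% and 31.1% and at 13.2% and 26.6%. At the third it was higher in dTAG13 library 1, at 28.8% and 10.1%, so the replicates differed in opposite directions at sites 12 bases apart or less. The Hs6st1 site with the most reads, 36144854, read 19.0% of 284 reads in untreated library 1 and 13.9% of 1350 in dTAG13 library 2.

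Hs6st2 had the fewest sites, 13 in each untreated library and 9 and 7 with dTAG13. At chromosome X, position 50478834, minus strand, it read 100% (55 of 55) and 90% (18 of 20) without dTAG13 and was not listed with it. Its position with the most reads, 50770134, was listed in dTAG13 library 1 alone, at 35.9% of 287 reads.

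The glypicans Gpc3 and Gpc4 are core proteins that carry the chains on the cell surface by a lipid anchor. Gpc3 had 41 and 34 listed sites without and 25 and 33 with dTAG13, and Gpc4 had 48 and 43 without and 19 and 29 with it. Neither gene's groups overlapped. Coverage was lower with dTAG13 in both, at 223 and 173 against 296 and 322 in Gpc3 and at 104 and 167 against 183 and 186 in Gpc4. Relative to the median gene, the log2 differences were -0.57 ± 0.30 and -0.41 ± 0.21 (SE, n = 2 per group). That of Gpc3 rested on dTAG13 library 2, since it was -0.18 without this library and -0.97 without dTAG13 library 1.

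Listed levels were low in Gpc3. Its site with the most reads, at chromosome X, position 51361393, minus strand, read 15.03% of 792 reads in untreated library 1 and 13.4% of 771 in dTAG13 library 1, values that their Wilson intervals (12.7 to 17.7% and 11.1 to 15.9%) do not separate. Of 4 Gpc3 sites listed in 3 libraries, that at 51517465 was alike throughout, at 15.04% and 19.9% without and 18.8% with dTAG13. At 51361543 the dTAG13 library read 43.2% (35 of 81), above 21.5% and 14.7% in the untreated libraries. The sites 51361793 and 51517438 were listed in both dTAG13 libraries and no untreated one, at 97.5% and 28.3% and at 27.2% and 13.5%. In Gpc4 the highest site in both untreated libraries, 51163394, read 69.8% (125 of 179) and 47.8% (152 of 318), and dTAG13 library 1 read 70.4% (57 of 81). It therefore lay no lower with dTAG13 where it was listed. The Gpc4 position with the most reads, 51141194, was listed once, at 11.3% of 665 reads in untreated library 1.

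**Figure D3:**
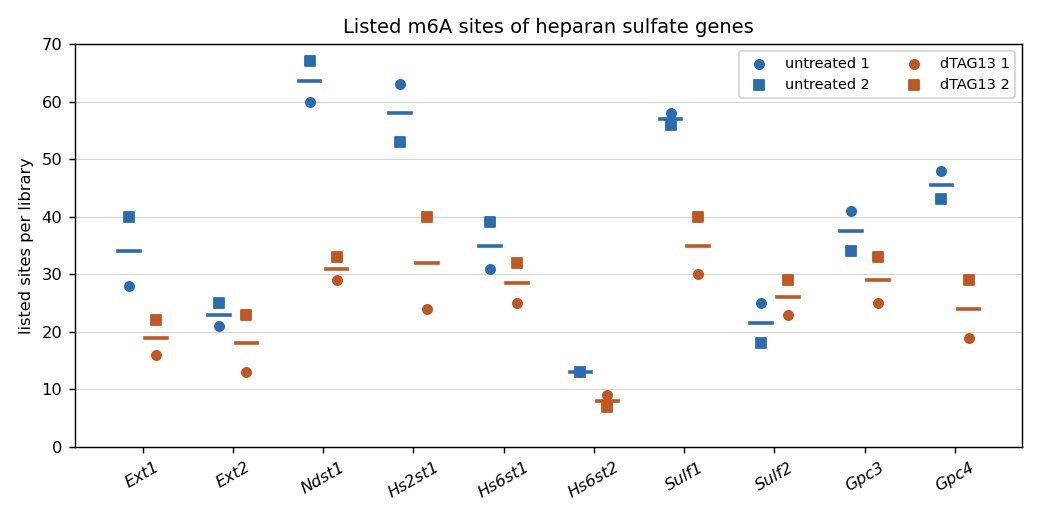
Number of listed sites (vertical axis) of each of the 10 genes in each library, with untreated libraries in blue and dTAG13 in orange (circle, replicate 1; square, replicate 2) and a bar at each group mean; the untreated Hs6st2 markers coincide at 13. In 7 genes both orange points lie below both blue points, and Ext2, Hs6st1 and Sulf2 overlap.

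Summed over the 10 genes, both untreated libraries listed 388 sites, and the dTAG13 libraries listed 213 and 288. The means were 388 ± 0 and 250.5 ± 53.0 (SD, n = 2 each), a ratio of 0.646, against 0.714 over all genes. In 7 of the 10 members both dTAG13 libraries had fewer sites than both untreated libraries. Among all 7577 genes with a mean of 10 or more sites per library this held for 55.4%. The exceptions were Ext2, Hs6st1 and Sulf2, and Sulf2 alone had a higher mean with dTAG13. With at least 50 reads required per site, Hs6st1 also turned, from a ratio of 0.814 to 1.06. Counting only sites at 20% or more, the ratio of Gpc3 went from 0.773 to 1. Per 100 units of coverage, sites were fewer in both dTAG13 libraries in Ext1, Ext2, Ndst1, Hs2st1, Hs6st1, Sulf1 and Gpc4, that is 7 members, against 41.6% of all genes with a mean of 10 or more sites. On that scale Hs6st2 and Gpc3 overlapped, and Gpc3 turned, from a ratio of 0.773 to 1.24.

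Among the sites that were listed, levels were not lower in the dTAG13 libraries. Sites under the 10% limit are not listed, so these values cannot show a fall to below it. The median level over member sites was 28.8% and 26.9% without and 31.3% and 33.6% with dTAG13. Over all genes it was 28.2% and 27.0% without and 29.3% in each dTAG13 library. Sites at 50% or more made up 30.4% and 28.1% of the untreated and 30.5% and 35.8% of the dTAG13 member sites, and 29.5%, 27.9%, 31.3% and 31.9% of the sites of all genes in the same order. Counted rather than as a share, they numbered 118 and 109 without and 65 and 103 with dTAG13, so the dTAG13 counts were the lower. The ratio of group means was 0.740 for the members and 0.788 for all genes. Sites at exactly 100% numbered 43, 29, 21 and 34.

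Few positions were shared between libraries. Of the 1153 member sites, 1046 came from a single library; 91 were found in 2 libraries, 15 in 3 and 1 in 4. The share from a single library was 90.7%, near the 91.4% of all sites inside genes. There were 39 sites common to both untreated libraries and 18 common to both dTAG13 libraries, and the 4 mixed pairs had 16 to 27. Of the 388 sites of untreated library 1, 10.1% (Wilson 95% interval 7.44 to 13.4%) were listed in untreated library 2, 4.12% (2.55 to 6.59%) in dTAG13 library 1 and 6.96% (4.83 to 9.94%) in dTAG13 library 2. From untreated library 2 the shares were 10.1% (7.44 to 13.4%) in the other untreated library and 6.19% (4.19 to 9.04%) and 4.64% (2.95 to 7.21%) in the dTAG13 libraries. In each case the interval of 1 dTAG13 library overlapped that of the untreated replicate. The shares over all genes were close to these, at 9.62%, 4.97% and 5.35% from untreated library 1 and 9.22%, 4.76% and 5.21% from untreated library 2. As a ratio to the untreated replicate, recovery with dTAG13 was 0.545 for the members and 0.538 for all genes.

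There were 28 member sites listed in both untreated and no dTAG13 library, 2.43% of the 1153, and the same pattern held for 2.41% of all sites inside genes. There were 12 member sites in both dTAG13 and no untreated library, or 1.04%, against 0.921% inside all genes. Both shares were near those of all genes. By gene, Sulf1 and Hs2st1 gave 6 each of the 28, and Sulf2 and Hs6st1 gave 0 and 2. Of the 12, Ndst1 and Hs6st1 gave 3 each, Sulf2 and Gpc3 2 each, and Sulf1 and Hs2st1 1 each.

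Levels at shared sites varied between replicates. At the 39 sites of the untreated pair the replicates were a median of 10.0 points apart, and 11 of the 39 were over 20 points apart, the largest gap being 59.5 points. At the 18 sites of the dTAG13 pair the median gap was 14.2 points and the largest 89.0. There, 3 of the 18 were over 20 points apart. Over all genes the median gap was 9.67 points in the untreated and 8.28 points in the dTAG13 pair. Of 67 member sites listed in at least 1 library of each group, 26 were lower and 41 higher with dTAG13, with a median difference of 5.54 points. Falls of over 20 points were seen at 10 of them (14.9%) and rises of over 20 points at 16 (23.9%). Over all genes the shares were 12.7% and 19.0% of 44304 sites. Of these, 19097 were lower and 24801 higher, with a median difference of 1.57 points. A site that fell below the 10% limit in both dTAG13 libraries is in neither set, so such falls were not counted. The Sulf2 site at 165916546 was the 1 site of the 67 member sites with both replicates of both groups.

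The listed sites were clustered along the genes. Within 5 kb of the 3′-most listed position of their gene lay 712 of the 1153 member sites (61.8%), compared with 64.8% over genes with a mean of 10 or more sites. Sites listed in more than 1 library lay there in 81 of 107 cases (75.7%), and those in 1 library in 631 of 1046 (60.3%); this difference was not tested. Hs6st1 (91.9%), Hs6st2 (90%), Ndst1 (80.9%) and Hs2st1 (80%) had most sites in this stretch, whereas Ext1 (15.5%), Gpc3 (28.2%), Ext2 (31.6%) and Sulf2 (35.7%) did not. The densest 2 kb of Ext1, from position 53207820, lay at the 5′ end of its listed span, 276 kb from the 3′-most site, and held 38 of its 97 sites and 6 of its 7 shared ones. In Sulf1 the densest 2 kb held 98 of 160 sites and 13 of 21 shared ones. The Sulf2 site at 165916546 lay in the last 2 kb, with 30 of the 84 Sulf2 sites. About as many member sites as sites of all genes had another listed site within 10 bases in the same library, 29.1% to 33.2% against 28.9% to 32.1%.

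The tables also placed sites outside genes within the listed spans of the members. There were 171 within that of Ext1, 169 of them on the strand of Ext1, compared with 97 sites listed under Ext1 itself. The other members had 7 (Sulf2) to 57 (Gpc3) such sites. Only Hs2st1 had sites of other named genes, Gm43560 and Gm46829, within its span.

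**Figure D4:**
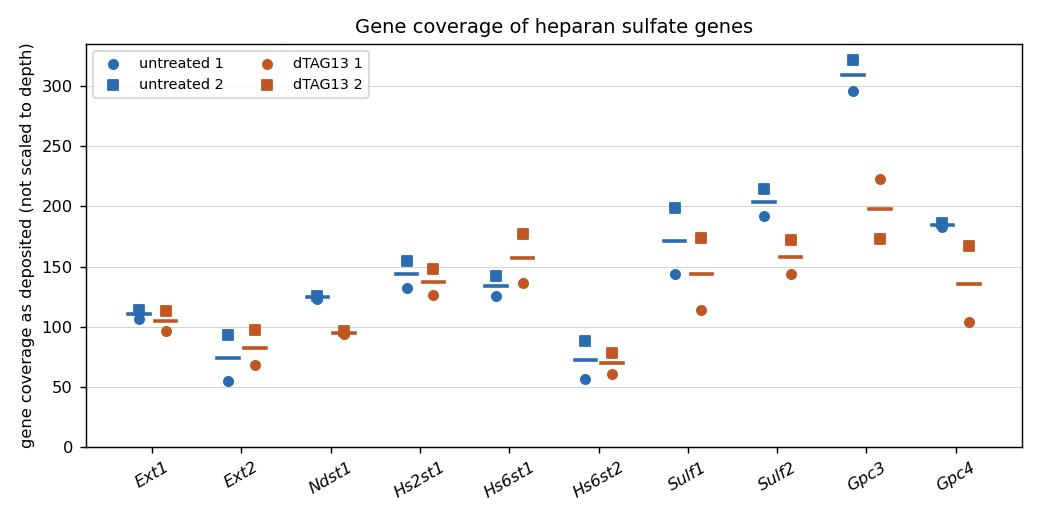
Gene coverage as the authors deposited it, not scaled to library depth (vertical axis), of each member in each library, with untreated libraries in blue and dTAG13 in orange (circle, replicate 1; square, replicate 2) and a bar at each group mean. Both orange points lie below both blue points in Ndst1, Sulf2, Gpc3 and Gpc4.

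Coverage and conversion were set beside the site numbers. Over 12520 genes with a value in all 4 libraries, limma on median-centred log2 coverage called 0% changed at an adjusted p under 0.05 and 12.7% at an unadjusted p under 0.05. Of the 10 members 0 were called by either threshold. Relative to the median gene, coverage was lower in both dTAG13 libraries for 4 members (Ndst1, Sulf2, Gpc3 and Gpc4), against 29.2% of all genes. It was higher in both for 1 member, Hs6st1, against 17% of all genes. The median log2 difference was -0.09 over the members and -0.07 over all genes. Fewer cells expressing a gene and less RNA per cell cannot be told apart in these bulk libraries.

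The conversion rate was higher in both dTAG13 libraries for 6 members (Ext1, Ndst1, Hs2st1, Sulf1, Sulf2 and Gpc4), compared with 40.9% of all genes. It was lower in both for Gpc3, with no share over all genes at hand to set beside this. Over all genes the median rate was 95.8% and 96.2% in the untreated and 96.9% and 96.7% in the dTAG13 libraries. Its part in the number of listed sites was not tested. Of the 6 members with a higher rate, Ext1, Ndst1, Hs2st1, Sulf1 and Gpc4 had fewer sites in both dTAG13 libraries and Sulf2 overlapped. Gpc3, with the lower rate, also had fewer sites, and its rate was 95.5% and 95.3% with dTAG13 against 96.0% and 96.5%.

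The rest of the pathway was read from a list of 48 further heparan sulfate genes, of which 42 were listed in at least 1 library and 25 had a mean of 10 or more sites. Ndst3, Ndst4, Hs3st2, Gpc5, Hpse and Hpse2 were listed in none. Of the 25 genes, 8 had fewer sites in both dTAG13 than in both untreated libraries, 1 had more and 16 overlapped, with a median ratio of 0.793. Among all genes with a mean of 10 or more sites, 55.4% had fewer and 3.67% had more, and the median ratio was 0.704. The 1 higher gene was Slc35b2, a Golgi carrier of the sulfate donor PAPS, with 23 and 24 sites without and 33 and 27 with dTAG13. The largest difference was in Extl3, which primes chain synthesis, with 49 and 39 sites without and 12 and 19 with dTAG13. The basement membrane proteoglycans followed: Agrn had 79 and 76 against 58 and 64, Hspg2 29 and 42 against 26 and 18, and Col18a1 48 and 74 against 37 and 58, the last overlapping. Among these genes, Agrn had 2 sites listed in all 4 libraries and Fam20b, a kinase of the linker sugar, had 1, and the site model called 0 of them changed. All were low. In Agrn, at chromosome 4, position 156250447, minus strand, the level was 19.1% (94 of 492 reads) and 14.99% (79 of 527 reads) without and 20.9% (43 of 206 reads) and 15.1% (74 of 491 reads) with dTAG13. At the other Agrn site, 18 bases away, it was 15.6% and 11.6% without and 17.8% and 11.8% with dTAG13. In Fam20b, at chromosome 1, position 156506240, minus strand, it was 16.5% and 13.7% without and 22.0% and 13.0% with dTAG13. The ranges of both groups overlapped at each of these Agrn and Fam20b sites but not at the Sulf2 site described above.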

How the data were processed

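GLORI site tables of 4 libraries, 2 untreated and 2 treated with dTAG13, were used, grouped by sample title. The authors deposited, per the file headers, counts of A and G reads and of A reads per called site, their ratio as a fraction, the conversion rate of the gene as a fraction, a coverage signal per gene, and p-values; none is scaled to depth. The submitters' processing notes name the build mm10. Only 50 of the 1153 member sites (4.34%) lay inside the RefSeq GRCm38 interval of their gene. The deposited positions therefore do not match the named build, and which build was used is not settled. Coordinates are given as deposited, and exons, UTRs and sequences around sites were not used here. Aligner and caller are not given in the sources used here. The member genes and lists were chosen with earlier results of these data known.

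A minimum of 20 reads per library was set for sites found in all 4, and these were fitted with a quasi-binomial logistic model (dispersion moderated with squeezeVar of limma 3.58.1, held at 1 or above, deviance F test, two-sided). Gene coverage was tested with limma on log2 values centred on the median gene. Both used Benjamini-Hochberg adjustment over all features. They were also run on simulated data with large planted changes, which cannot show how they perform on smaller changes. Sites were named if listed in all 4 libraries, in both untreated libraries with a mean of 50% or more, in both dTAG13 libraries alone, or with the most reads of their gene; other sites and the densest stretches in the text were chosen after their values were seen. Alternatives were read and level minimums, other tests, no centring, leaving out each library, and the replicate number as a block.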

Additional observations from a re-analysis of the deposited data

How the results depend on the processing

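The ratio of listed member sites, 0.646, stayed below 1 under all alternatives run. It was 0.678 with at least 50 reads, 0.687 at a level of 20% or more and 0.638 with the replicate number as a block. Without dTAG13 library 1 it was 0.742, and without dTAG13 library 2 it was 0.549. Leaving out an untreated library could not change it, since both list 388 sites. For sites at 50% or more the ratio of 0.740 ran from 0.573 to 0.907 when a library was left out. Recovery in the dTAG13 libraries relative to the untreated replicate, 0.545, was 0.513 to 0.577 with either dTAG13 library left out, and fell to 0.407 at reference levels of 50% or more, where only 118 and 109 sites were left; over all genes it was 0.538 and fell to 0.305. The count of 1 called member site was also 1 with limma on log2 odds, which called 1.77% of all sites, and with Fisher's exact test on summed reads, which ignores the spread between replicates and called 22.9%. It was 0 to 0 when any library was left out, and 0 with the replicate block, where no site of the series passed; each of these fits has 1 residual degree of freedom. The labels do not say whether same-numbered libraries belong together. The correlation of their deviations was 0.0023 for coverage and 0.038 for site levels, which does not decide whether they are paired. No member was called for coverage under the alternatives run, but the log2 difference of Ext2 ran from -0.08 without untreated library 1 to 0.62 without untreated library 2, and that of Hs6st2 from -0.25 to 0.35.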
